A study of Drosophila melanogaster with 3 samples.

Results

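The genes described here are 55 embryonic axis and segment patterning genes of Drosophila melanogaster, picked by name. The rule itself uses no measured value, but the genes were chosen with earlier results of these data known. They were located in the dm6 gene annotation among 13945 protein-coding genes on 6 chromosome arms, and the remaining 13890 genes serve as the background. For each gene, every peak summit inside the gene or within 5 kb of either end was collected. By role they are 8 Hox genes, 13 maternal, gap, terminal and head genes, 9 pair-rule genes, 8 segment polarity genes and 17 dorsoventral genes.

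The peaks mark where the CG1647 protein was found on chromatin in whole embryos aged 0 to 24 h, of pooled sexes. All embryos came from a transgenic line that stably carries CG1647 with GFP at its C terminus, and the fusion protein was precipitated with an antibody against GFP from sonicated chromatin with fragments of 200 to 800 bp. There were 3 biological replicates of this 1 group and no second genotype, treatment or stage, so every comparison is between genes, peaks or replicates. Each library mixes all tissues and all stages of embryogenesis, so strong occupancy in few cells and weak occupancy in many cells cannot be told apart. Peak lists measure no expression, so the labelled tissue could not be checked against marker genes.

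Patterning of the fly embryo runs through a cascade of regulators. Maternal factors such as Bicoid set up gradients, gap genes read them and divide the body into broad regions, pair-rule genes lay down stripes, and segment polarity genes fix the borders of each segment through Wingless and Hedgehog signalling. Hox genes then give each segment its identity, while Dorsal and the BMP ligand Decapentaplegic pattern the axis from back to belly. Many of these genes sit in large intergenic or intronic territories that hold enhancers far from the promoter. CG1647 itself encodes a zinc finger protein.

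The authors' list of peaks past the irreproducible discovery rate threshold, called retained here, consists of the 22 peaks at patterning genes and 3101 others, typically 390 bp wide. These are the peaks of highest signal among 19204 candidates called on the pooled replicates. Signal is the value the authors' peak caller gave each peak, and it ran from 126.2 to 2899 in the retained list, with a median of 189.0. The replicates' own candidate lists held 30000, 17977 and 30000 peaks in replicates 1, 2 and 3, background included. A replicate's best peaks are those of highest signal, as many as the retained list holds, and a rank of 1 is the strongest peak of a list. The targeted gene itself, CG1647 (FBgn0039602), had 2 retained summits in its window, 1 of them within 500 bp of its transcription start site (TSS), and its best candidate ranked 1327.

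The patterning genes held 22 retained summits in all. The DNA under 8 of them is shown, chosen as the strongest that lay inside a patterning gene or had a patterning gene's TSS as the nearest of all. The intronic site of ptc (signal 215.0) met this description too, but its sequence is not printed here. Each line gives 121 bp of the plus strand of dm6, centred on the summit, from the RefSeq copy of release 6. Capitals mark 2 words, searched on both strands. GGTCACAC, the core of the fly core promoter element called motif 1, appears at slp2. ATTTAAAA or its reverse complement appears at bcd, brk and Doc2. The word ATTTAAAA was picked after the 8-letter words at all retained summits had been counted, and GGTCACAC after the slp2 sequence had been read.
slp2, 4311 bp upstream (chr2L:3832469-3832589): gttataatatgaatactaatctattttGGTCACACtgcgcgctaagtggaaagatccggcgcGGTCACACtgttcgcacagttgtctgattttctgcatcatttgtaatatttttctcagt
dpp, intron (chr2L:2433585-2433705): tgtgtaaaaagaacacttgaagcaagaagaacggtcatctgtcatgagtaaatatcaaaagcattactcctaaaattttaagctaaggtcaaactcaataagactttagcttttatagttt
sog, intron (chrX:15619410-15619530): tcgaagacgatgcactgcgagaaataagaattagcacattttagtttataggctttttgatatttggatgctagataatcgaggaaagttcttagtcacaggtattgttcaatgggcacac
bcd, 196 bp upstream (chr3R:6759602-6759722): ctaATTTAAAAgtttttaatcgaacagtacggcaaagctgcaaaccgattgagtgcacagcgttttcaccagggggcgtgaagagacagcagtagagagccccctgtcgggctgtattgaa
brk, 818 bp upstream (chrX:7307061-7307181): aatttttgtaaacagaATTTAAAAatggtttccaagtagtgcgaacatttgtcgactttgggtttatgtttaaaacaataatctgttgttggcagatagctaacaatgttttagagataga
Antp, intron, stronger site (chr3R:6914535-6914655): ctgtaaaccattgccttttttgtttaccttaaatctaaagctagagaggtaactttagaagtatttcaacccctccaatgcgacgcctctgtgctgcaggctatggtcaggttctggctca
Antp, intron, weaker site (chr3R:6936225-6936345): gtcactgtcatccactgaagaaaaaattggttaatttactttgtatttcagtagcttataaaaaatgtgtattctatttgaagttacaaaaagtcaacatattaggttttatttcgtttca
Doc2, 4645 bp upstream (chr3L:9023831-9023951): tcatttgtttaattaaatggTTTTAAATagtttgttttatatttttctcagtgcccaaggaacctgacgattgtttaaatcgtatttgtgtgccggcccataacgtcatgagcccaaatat

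Beside the slp2 summit, the strongest of the 22, 2 copies of GGTCACAC stood on the same strand. Counted in the 200 bp around each summit, this word was found at 1 of the 22 patterning sites (4.55%), against 98 of the 3101 other retained summits (3.16%). That 1 site is slp2, from which the word was taken. The patterning count was therefore fixed in advance, and its comparison with other summits decides nothing. Away from promoters it was rarer, at 5 of the 1379 other retained summits that lay more than 500 bp from a protein-coding TSS (0.363%). The slp2 summit is itself 4311 bp from the nearest TSS. ATTTAAAA was found at 4 of 22 patterning sites (18.2%), those of bcd (2 copies), brk, Doc2 and 1 site of ptc, against 304 of 3101 other retained summits (9.80%). In windows of 400 bp the same word was at 4 of 22 (18.2%), against 530 of 3101 (17.1%), so that difference in share was nearly gone. Of the 1379 others away from promoters, 113 (8.19%) had ATTTAAAA within 200 bp and 174 (12.6%) within 400 bp. Against those summits the patterning share thus stayed the higher one. The counts at patterning sites are small, and these shares are descriptions.

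Of the words known from fly promoters, enhancers and insulators, few were found at the patterning sites. The DNA replication-related element TATCGATA was at 0 of 22 sites and at 4.93% of the other retained summits, but at only 0.363% of the others away from promoters, where 20 of the 22 sites lie. Core promoter motif 7, searched as CAGCNCTA, CAGCNCTG, CATCNCTA and CATCNCTG, was at 0 of 22 and at 16.4% of the others, or 5.22% of the others away from promoters. In windows of 400 bp motif 7 was at 5 of 22 (22.7%), against 25.1% of the others and 11.2% of the others away from promoters, so the order against the non-promoter summits turned round. The GAGA factor word GAGAGAG was at 1 of 22, a ptc site, and at 3.97% of the others. CAGGTAG, the word of the early embryonic activator Zelda, was at 0 of 22 and at 0.935% of the others. The CTCF core AGNTGGCGC was at 0 of 22 and at 2.32% of the others. A count of 0 of 22 allows a share of up to 13.6% (3 counts of 22), for counting error only. The absence of these letters from a window of 200 bp says nothing more about the factors.

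A retained CG1647 summit was found at a smaller share of patterning genes than of other genes. The shares are given as descriptions, with no test. In the gene or within 5 kb, 14 of 55 patterning genes (25.5%, exact Clopper-Pearson 95% interval 14.7 to 39.0) had 1 or more, against 5654 of 13890 other protein-coding genes (40.7%). The replicates' own best peaks gave 17, 15 and 10 patterning genes in replicates 1, 2 and 3, which is 30.9%, 27.3% and 18.2%, a mean of 25.5% ± 6.56 (SD, n = 3). For other genes the same shares were 38.5%, 40.9% and 40.7%, a mean of 40.0% ± 1.31 (SD, n = 3). All 3 replicates put the patterning genes below the other genes, and the ranges of the replicates did not overlap. The replicates score the same genes with lists cut to 1 length, so their spread does not cover which genes are compared. Leaving out replicate 1, 2 or 3, by keeping only retained peaks found in both others, left 10, 8 and 12 of 55 patterning genes. The shares of other genes were then 32.5%, 30.1% and 30.4%. The interval covers counting over genes only, and neighbouring genes are not independent.

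**Figure D1:**
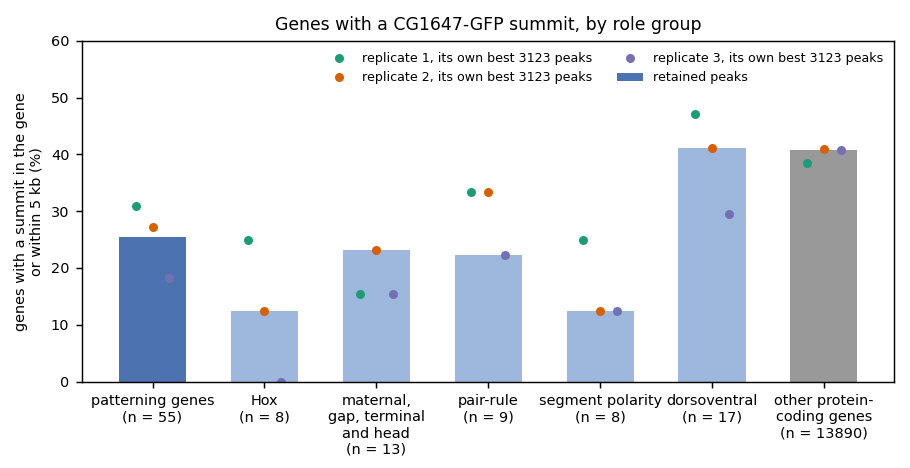
Share of genes (%, y axis) with a CG1647-GFP summit in the gene or within 5 kb, for all 55 patterning genes, for each role group and for the other protein-coding genes. Bars show the retained list and dots each replicate's own best peaks. The patterning genes stand at 25.5%, the dorsoventral group at 41.2% and the other genes at 40.7%.

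At promoters the share of patterning genes was lower still. A retained summit within 500 bp of a TSS was found for 1 of 55 patterning genes, bcd (1.82%, exact 95% interval 0.0460 to 9.72), against 2265 of 13890 other genes (16.3%). Among the replicates' own best peaks, bcd had such a summit in all 3 replicates, with ranks 525, 1437 and 2045. The pair-rule gene h had one in replicates 1 and 3 (ranks 2187 and 2639), and odd, ptc and pnr had one in replicate 1 (ranks 2783, 2624 and 2149). These counts of 5, 1 and 2 genes averaged 4.85% ± 3.78, against 15.8% ± 1.01 for other genes (SD, n = 3). Inside the gene itself, 6 of 55 patterning genes had a retained summit (10.9%), against 9.19% of other genes, the reverse of the order seen with flanks. Per 100 kb of merged gene sequence there were 1.04 retained summits in patterning genes and 1.95 in other genes.

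Candidates of any strength were found at similar shares of both. In the full pooled candidate list, which includes background, 47 of 55 patterning genes (85.5%) had a summit in the gene or within 5 kb, against 83.1% of other genes. Per 100 kb of merged windows the patterning genes had 15.1 candidates and other genes 16.3. Retained summits were 1.68 per 100 kb at patterning genes (22 over 1307 kb) and 2.70 per 100 kb at other genes. The replicates' own best peaks gave 2.14, 1.68 and 1.30 per 100 kb at patterning genes, a mean of 1.71 ± 0.421, against 2.70 ± 0.0193 at other genes (SD, n = 3). Out of every 100 candidates, 11.1 were retained at patterning genes and 16.5 at other genes. The rate at patterning genes fell to 0.918, 0.842 and 1.22 per 100 kb without replicate 1, 2 or 3. Other genes then had 1.89, 1.82 and 1.845.

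Patterning genes are long, with a median of 5134 bp against 2161 bp for other genes, and longer genes have wider windows. Within 3 classes of window length, each a range, the share of patterning genes was the lower one each time. The counts per class are small and no interval was computed, so the size of the gap in a class is uncertain. Where gene and flanks came to 15 kb or less, 6 of 27 patterning genes (22.2%) had a retained summit, against 36.8% of other genes. Between 15 and 25 kb the counts were 3 of 11 (27.3%), against 50.7%, and above 25 kb 5 of 17 (29.4%), against 55.7%. The median distance from a gene to the nearest retained summit was 15.01 kb for patterning genes and 8.15 kb for other genes. With each replicate's own best peaks it was 14.28, 10.26 and 14.97 kb for patterning genes and 9.08, 8.04 and 8.26 kb for other genes in replicates 1, 2 and 3. Leaving out replicate 1, 2 or 3 gave 17.6, 20.7 and 17.6 kb for patterning genes and 12.6, 14.2 and 13.8 kb for other genes, a narrower gap in proportion.

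**Figure D2:**
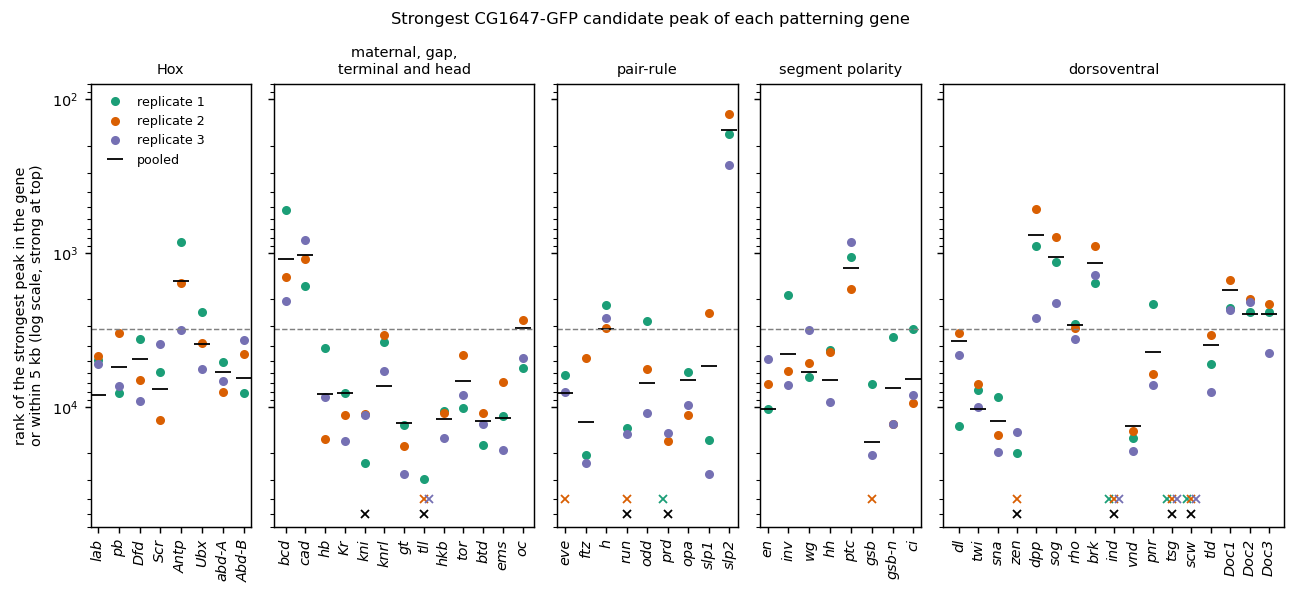
Rank of the strongest candidate peak in each patterning gene or within 5 kb (log y axis, strong peaks at the top) in replicates 1 to 3 (dots) and in the pooled list (dash), by role group. The dashed line marks the last rank of the retained list, and crosses at the bottom mark a list with no peak at that gene. Ranks come from lists of unequal length. Only slp2 stands above rank 500 in all 4 lists, and ind, tsg and scw have no peak in any list.

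The Hox genes, which encode the homeodomain factors of segment identity, had retained summits at 1 of 8 members, Antp (FBgn0260642), the selector of thoracic identity. Antp spans 102976 bp on 3R and both its summits lay in introns it shares with CG46458. The stronger, at 6914595, was 18245 bp downstream of the nearest Antp TSS, had a signal of 192.3, and ranked 850, 1572 and 3433 in replicates 1, 2 and 3. The other, at 6936285, was 3445 bp upstream of one of the gene's 3 start sites, with a signal of 157.5 and ranks of 1807, 2732 and 3153. Both were among the best peaks of replicates 1 and 2 and just outside those of replicate 3. The 7 other Hox genes had candidates only. Their strongest ranked 3915 at Ubx, 4897 at Dfd, 5478 at pb, 5923 at abd-A, 6531 at Abd-B, 7682 at Scr and 8322 at lab in the pooled list. Ubx, the selector of the posterior thorax, had a best peak in replicate 1 alone (rank 2401, against 3861 and 5690 in replicates 2 and 3). The Hox windows had 0.479 retained summits per 100 kb, the lowest rate of the 5 role groups.

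Seen as whole complexes, the Hox territories held few retained summits, and the strongest of them lay outside every gene window. The Antennapedia complex, from lab to Antp (337.8 kb), had 3 retained summits and 47 candidates, which is 0.888 retained per 100 kb. The bithorax complex, from Ubx to Abd-B (315.6 kb), had 3 and 38, or 0.951 per 100 kb, and the whole of arm 3R had 2.29 per 100 kb. In the bithorax complex 1 summit stood far above the rest, at 16798852 on 3R between Ubx and abd-A. Its signal was 545.0, its pooled rank 156, and its ranks 76, 380 and 165 in replicates 1, 2 and 3. It was intergenic, 8.36 kb from abd-A (the selector of the anterior abdomen) and 1748 bp from the nearest TSS, that of lncRNA:CR45750. The other bithorax summits were in an intron of the noncoding RNA gene iab8 (16919300, signal 128.2) and in an intron of the noncoding RNA gene bxd (16769649, signal 126.6). These ranked 3032 and 3101, close to the end of the retained list. The iab8 site held the CTCF core.

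The sequence at the strong bithorax summit is shown because it has the highest signal in either Hox complex. It was chosen after the values were seen, and capitals mark the Zelda word on the minus strand (CTACCTG).
between Ubx and abd-A (chr3R:16798792-16798912): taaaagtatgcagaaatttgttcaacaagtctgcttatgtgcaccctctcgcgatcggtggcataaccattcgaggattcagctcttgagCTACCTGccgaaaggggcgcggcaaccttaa

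**Figure D3:**
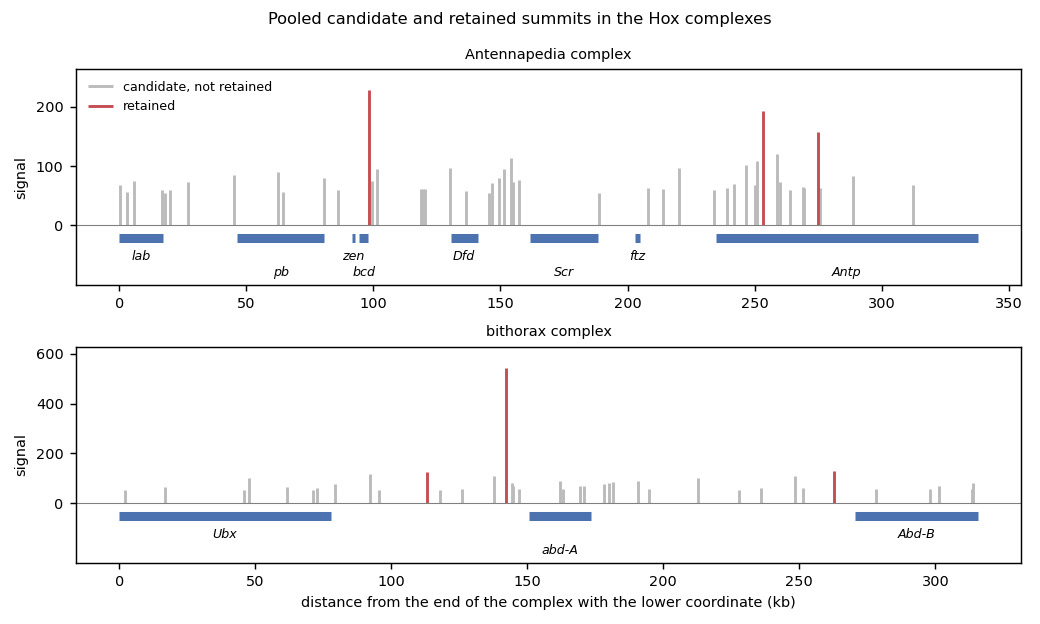
Signal of every pooled candidate summit (y axis, the authors' signal) along the Antennapedia and bithorax complexes (x axis, kb from the end of lower coordinate). Red lines are retained summits, grey lines are candidates not retained, and blue bars are genes. The bithorax summit of signal 545.0 stands alone between Ubx and abd-A, and the Antennapedia summits of 228.7, 192.3 and 157.5 lie at bcd and in Antp.

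Among the 13 maternal, gap, terminal and head genes, bcd, cad and oc had retained summits. The promoter of bcd (FBgn0000166), the maternal determinant of the head, had a summit at 6759662 on 3R, 196 bp upstream of the TSS, with a signal of 228.7. It ranked 525, 1437 and 2045 in replicates 1, 2 and 3 and so was a best peak of each. It was the only retained summit near the zen and bcd genes, and zen, 5468 bp away, had none in its own window. At cad (FBgn0000251), a posterior homeobox gene, the stronger summit (2L, 20787470, signal 236.9) lay 4335 bp beyond the gene and 186 bp upstream of the start of Pomp, a proteasome maturation factor gene. It ranked 1628, 1085 and 822 in the replicates. The weaker summit of cad was in its own intron (20780979, signal 131.6), with ranks of 1831 and 1699 in replicates 1 and 3 and no overlapping candidate in replicate 2. At oc (FBgn0004102), the head gene also called orthodenticle, the summit lay 2763 bp downstream of the gene on X at 8627396 (signal 127.7). Only replicate 2 had the oc peak among its best (rank 2705, against 5621 and 4812 in replicates 1 and 3).

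Apart from the head gene oc, described above, no gap gene, terminal gap gene or head gap gene had a retained summit in its window. The strongest pooled candidates ranked 7288 at knrl, 8137 at Kr, 8248 at hb and 12699 at gt, all far below the retained peaks. The gap gene kni had no pooled candidate, and the nearest retained summit was 16.2 kb away. The terminal gap gene tll had no pooled candidate either and a single one of rank 29362 in replicate 1, and its terminal partner hkb had rank 11937. The terminal receptor gene tor had rank 6739, with a retained summit 5990 bp outside the gene. The head gap genes btd and ems had ranks of 12354 and 11788.

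The pair-rule group held the strongest patterning site. At slp2 (FBgn0004567), 1 of the 2 adjacent sloppy-paired forkhead genes, the summit at 3832529 on 2L had a signal of 542.6 and a pooled rank of 158. It ranked 169, 125 and 269 in replicates 1, 2 and 3, so all 3 placed it among their strongest peaks. The peak ran over only 133 bp, from 3832456 to 3832588, and its summit was 4311 bp upstream of slp2 and 5430 bp beyond slp1, in the DNA between them. That distance put it just outside the window of slp1 (FBgn0003430), whose own best candidate ranked 5420 in the pooled list and 2446 in replicate 2. The other pair-rule gene with a retained summit was h (FBgn0001168, hairy, listed as hry), with a weak one 3379 bp beyond the gene on 3L at 8682632. Its signal was 126.7 and its ranks were 8325, 3058 and 2728 in the replicates. Near the h promoter, replicates 1 and 3 each had a best peak that was not in the retained list.

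The remaining pair-rule genes had weak candidates or none. The pooled ranks were 6729 at opa, a zinc finger gene, 6978 at odd, 8174 at eve and 12607 at ftz. The homeobox gene eve had no candidate in replicate 2, and the nearest retained summit was 8310 bp away. The zinc finger gene odd had a best peak in replicate 1 alone (rank 2783, against 5683 and 10983 in replicates 2 and 3). For run, the Runt transcription factor gene, and prd, the paired box gene, the pooled list held no candidate at all.

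Of the 8 segment polarity genes only ptc (FBgn0003892), which encodes the Hedgehog receptor, had retained summits, and it had 3. The strongest was in its own intron, at 8654408 on 2R, 4759 bp downstream of its TSS, with a signal of 215.0 and ranks of 1053, 2762 and 843 in replicates 1, 2 and 3. The other ptc summits, at 8669209 (signal 192.4) and 8667822 (signal 126.7), lay 3986 and 2599 bp beyond the gene, in an intron of the neighbour Acsl, a fatty acid metabolism gene. The first of these ranked 1703, 1718 and 1297 in the replicates and the second 1440, 9671 and 4928. The ptc window held 15 pooled candidates in 25575 bp, and replicates 1, 2 and 3 placed 4, 2 and 4 best peaks there.

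The ligand genes of the same pathways had none. The Wnt gene wg had a strongest pooled rank of 5957 and hh, the ligand of Patched, 6679, with the nearest retained summits 23.6 and 33.7 kb away. The selector gene en and its paralog inv were among the patterning genes farthest from any retained summit, at 65.6 and 84.1 kb. No retained summit lay in the 53.7 kb from inv to en, and inv had a best peak in replicate 1 alone (rank 1880, against 5811 and 7241). The paired box genes gsb and gsb-n ranked 16921 and 7483, and ci, the transcription factor of Hedgehog signalling, ranked 6577. In replicate 1 the strongest ci peak had rank 3136, just outside its best peaks.

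The dorsoventral genes had the highest share of the 5 role groups, with 7 of 17 members having a retained summit (41.2%, exact 95% interval 18.4 to 67.1). This is close to the 40.7% of other genes, and the rate of 3.00 per 100 kb is beside 2.70 for other genes. In the replicates' own best peaks the counts were 8, 7 and 5 of 17. The difference between role groups was not tested, and 3 of the 7 genes are the neighbouring Doc genes.

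The BMP pathway genes dpp, sog and brk gave 7 of the 22 summits, while tld, tsg and scw, described below, had none. The windows of dpp and sog are wide, at 41452 and 40152 bp, and that of brk is 13194 bp. The ligand gene dpp (FBgn0000490) had an intronic summit at 2433645 on 2L, 5273 bp downstream of a TSS, with a signal of 272.7 and ranks of 897, 514 and 2633 in replicates 1, 2 and 3. A weaker dpp summit, 1705 bp upstream at 2426667, had a signal of 154.3 and ranks of 2142, 2379 and 2723. Both dpp sites were best peaks of every replicate. The gene for the BMP antagonist Short gastrulation, sog (FBgn0003463), had summits in its introns at 15619470 and 15623069 on X (signals 234.2 and 138.0). The sog site at 15619470 ranked 1146, 785 and 2119 in the replicates, and that at 15623069 ranked 2096, 2821 and 5475. A last sog summit, 3388 bp beyond the gene at 15599895 (signal 155.8, ranks 1781, 2431 and 3908), was nearer to the start of Chsy. The repressor gene brk (FBgn0024250), which keeps BMP targets silent, had summits 818 and 1964 bp upstream of its TSS, at 7307121 and 7305975 on X. The nearer brk summit had a signal of 222.5 and ranked 1563, 896 and 1395, while the farther had 140.3 and ranked 3957, 2548 and 3274. Both lay in an intron of CG1677 and of lncRNA:CR44357.

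The Dorsocross genes, which encode T-box factors of the dorsal amnioserosa, lie in a cluster on 3L that was dense in retained summits. Doc1 (FBgn0028789) had a summit 521 bp beyond the gene at 9045563 (signal 178.7), with ranks of 2290, 1488 and 2336 in replicates 1, 2 and 3. The Doc1 summit was nearer to the start of Argk2 (1876 bp) than to that of Doc1 (3734 bp). Doc2 (FBgn0035956) had 1 summit 4645 bp upstream at 9023891 (signal 144.3), which ranked 7157 in replicate 1 but 1993 and 2071 in replicates 2 and 3. It shared another with Doc3 (FBgn0035954), at 9011944 between the genes (signal 145.4, ranks 2412, 2148 and 4468). The start nearest to this shared summit was that of CG5194, 2106 bp away. Outside the 5 kb windows, the DNA between Doc2 and Doc1 held summits at 9025862 (signal 286.9) and 9034532 (signal 162.7). The first of these ranked 439, 829 and 1217 in the replicates and was stronger than any summit in a Doc window. From Doc3 to Doc1 there were 4 retained summits in 39.8 kb, or 10.04 per 100 kb, against 2.70 per 100 kb in windows of other genes. The replicates' own best peaks numbered 3, 5 and 2 there. The rate rests on few summits, and no rate for arm 3L was computed.

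At rho (FBgn0004635), an activator of EGF signalling in the flank of the embryo, the summit was in an intron at 1464660 on 3L, 849 bp downstream of the TSS, with a signal of 131.0 and ranks of 2881, 3072 and 4303. The transcription factor genes at the top of the dorsoventral cascade had none. Dorsal's gene dl had a pooled rank of 3716, with 3319 and 4599 in replicates 2 and 3 and 13316 in replicate 1. Its targets twi and sna had 10258 and 12299, and vnd, a homeobox gene of the neural columns, had 13306. On the dorsal side, the GATA factor gene pnr had 4408 and a best peak in replicate 1 alone (rank 2149), and the protease gene tld had 3959. The homeobox gene zen had no pooled candidate. The genes ind, tsg and scw had no candidate in the pooled list or in any replicate. Among these, tsg encodes a BMP-binding protein, scw a BMP ligand and ind a homeodomain factor of the nervous system.

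**Figure D4:**
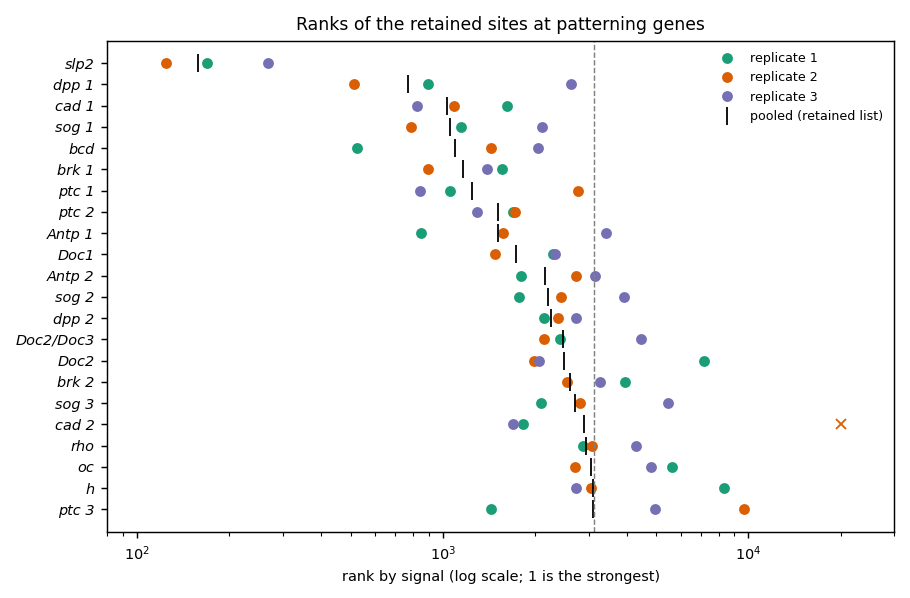
Rank by signal (log x axis, 1 is the strongest) of the 22 retained sites at patterning genes in replicates 1 to 3 (dots) and in the pooled list (bars), ordered by pooled signal. The dashed line marks the last rank of the retained list and the cross a site with no candidate in replicate 2. The 8 strongest sites lie left of the line in every replicate, while replicate 3 places 9 of the others to the right of it.

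Taken by themselves, the 22 sites were weaker than other retained peaks. Their median signal was 156.7, at percentile 30.02 of the retained list, against 189.1 for the 3101 others. Over the replicates' own best peaks in patterning windows the median percentile was 36.4, 27.5 and 33.7 in replicates 1, 2 and 3 (28, 22 and 17 peaks). Leaving out replicate 1 or replicate 2 left 12 and 11 sites, whose medians stood at 45.35 and 45.53 within the shorter lists so kept. Of the 22, 9 belonged to the 1561 retained peaks of highest signal. Found among the best peaks of all 3 replicates were 10 of 22 (45.5%), against 1814 of 3101 others (58.5%). With the best 6000 peaks of each replicate these were 18 of 22, against 86.1% of others. A further 9 were found in exactly 2 replicates and 3 in exactly 1. By replicate, 18, 20 and 13 sites were found in replicates 1, 2 and 3, against 79.4%, 85.3% and 81.5% of other peaks. Replicate 3 thus had 59.1% of the patterning sites.

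They also lay farther from promoters. Within 500 bp of a protein-coding TSS there were 2 of 22 sites (9.09%), at bcd and at Pomp beside cad, against 1722 of 3101 other retained summits (55.5%). The median distance was 3458 bp, against 325 bp. Beyond 5 kb from any protein-coding TSS there were 7 of 22 (31.8%), against 465 of 3101. Among only the 1379 others more than 500 bp from a protein-coding TSS, those 465 made up 33.7%, and the median distance was 2892 bp. Against other summits away from promoters, the patterning sites thus had a similar share beyond 5 kb. The contrast with all other retained summits therefore mostly reflects how few patterning sites lay at promoters. By place, 8 sites were in introns of patterning genes, 10 were intergenic and 0 were in exons. Counting TSSs of all gene classes, 12 sites were nearest to a patterning gene's own TSS and 10 to that of another gene, such as Pomp, Acsl, Chsy, Argk2 and CG5194. Which of these genes a site acts on was not measured. Base composition was much as at other retained peaks. The 101 bp at the summit had a median of 62.4% A and T, against 63.4%, and the flanks 500 bp away had 56.2%, against 56.4%.

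**Figure D5:**
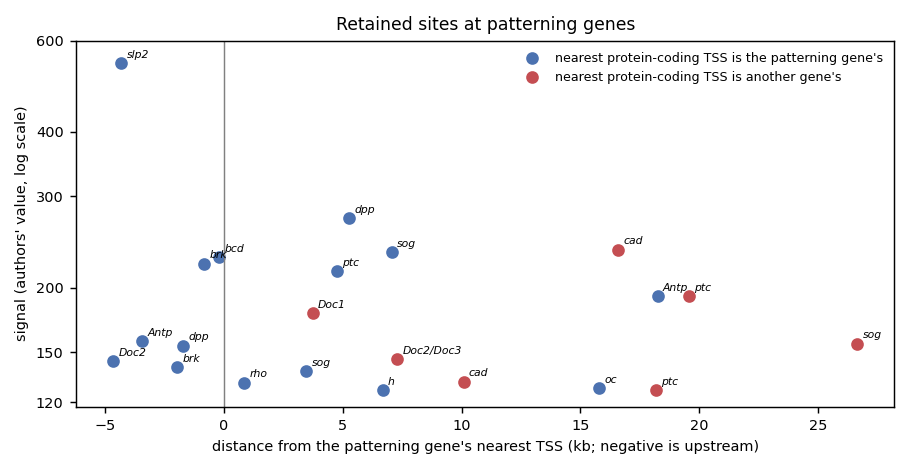
Signal (log y axis, the authors' value) of the 22 retained sites against their distance from the patterning gene's nearest TSS (x axis, kb, negative is upstream). Blue sites have that gene's TSS as the nearest protein-coding TSS and red sites that of another gene. Only bcd lies within 500 bp of the gene's TSS, and slp2 is the strongest at 4311 bp upstream.

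Other genes of the same pathways, from a list of 56 that was drawn up with results of these data known, had higher shares than the patterning genes. In the gene or within 5 kb 33 of 56 (58.9%) had a retained summit, and 11 (19.6%) had one within 500 bp of a TSS, against 25.5% and 1.82% of patterning genes. Over all protein-coding genes outside the patterning set the shares were 40.7% and 16.3%, so the share at start sites was near that background. In the replicates' own best peaks they gave 36, 33 and 31 of 56. These genes are longer, with a median of 8298 bp, and had 4.05 retained summits per 100 kb. By role the counts in the gene or within 5 kb were 9 of 10 maternal and terminal genes, 4 of 11 other axial factors, 5 of 12 Wnt and Hedgehog genes and 15 of 23 genes of the dorsoventral pathway.

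Several of these act directly on the patterning genes or their products. The strongest promoter summit was at gro, the co-repressor used by Hairy and Brinker, with a signal of 564.3 and ranks of 142, 144 and 175 in replicates 1, 2 and 3. The forkhead gene fkh, which acts at the ends of the embryo, followed with 441.6 (ranks 183, 1123 and 120). The promoter of shn, a cofactor of BMP signalling, had 404.1, and that of cact, the inhibitor of Dorsal, had 398.7. The cact site ranked 460, 258 and 457. Lower promoter signals were 212.3 at nos (the posterior determinant, listed as nanos), 173.7 at cnc, 172.5 at pip, 165.0 at smo, 159.2 at pll and 154.2 at nkd. Of these, nos ranked 4064 in replicate 1, and pip and nkd 4679 and 3408 in replicate 2, all outside the best peaks. The sites of cnc, smo and pll were among the best peaks of every replicate. The kinase gene pll and the sulfotransferase gene pip act upstream of Dorsal, and smo and nkd in Hedgehog and Wnt signalling. At gro, fkh, shn and cact the promoter signal was higher than that of the bcd promoter, the only one of a patterning gene.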

How the data were processed

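Chromatin immunoprecipitation with sequencing was done on 3 replicates. Per the labels and the descriptions deposited with each library, the authors called candidate peaks per replicate and on the pooled alignments, each against a control, and kept those past an irreproducible discovery rate threshold. The deposited lists give each peak a signal value (never negative), which was used to rank peaks and to compare signals within a list. For the aligner, the peak caller and the threshold, names and values were not given in the sources used here. Read counts were not used, so depth is unknown and precision is limited to counting over genes and the spread of 3 replicates.

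Genes came from Ensembl release 115 of the dm6 assembly and sequence from the RefSeq copy of release 6. The dm3 lists were not used. Every name was found, h under the newer symbol hry and nos under nanos. Summits in a gene or within 5 kb of it were assigned to it, so 1 summit can serve 2 genes. A TSS is the start of any transcript of a gene. Replicate lists were reduced to their peaks of highest signal, as many as were retained, and a peak was found in a replicate where at least 1 bp overlapped. Rates count each summit once over merged windows. Motifs were searched as exact letters on both strands in 200 bp around the summit. Base composition used short windows at the summit and 500 bp to each side. Peak overlap and the merging of windows were tested on simulated data, while the code that assigned summits to genes was not. Python 3.11.15, numpy 2.4.6, pandas 2.3.3, scipy 1.17.1 and Biopython 1.88 were used.

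The genes, the lists of related genes and the settings were chosen with earlier results of these data known, and no gene-list test was run. All 55 genes and all 22 retained summits are named. Sequences were printed for up to 8 summits of highest signal inside a patterning gene or nearest to its TSS, leaving out those on arm 2R, and up to 10 related genes were named by promoter signal. The sequence in the bithorax complex and names of summits outside the windows were added after their values were seen. Alternatives were other windows and TSS distances, the stronger 1561 retained peaks, other overlaps, each replicate alone and each replicate left out.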

Additional observations from a re-analysis of the deposited data

How the results depend on the processing

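Of 56 alternative values, 29 were labelled the same as the reported ones and 27 moved. The label did not follow 1 fixed relative change. Those labelled the same include 10 genes in place of 14 without replicate 1. They also include 32 genes with a pooled candidate without flanks, in place of 47. The 14 genes with a retained summit became 6 without flanks, 22 with 10 kb and 8 with the 1561 strongest peaks, when other genes stood at 9.19%, 54.2% and 24.9%. Without flanks the share of patterning genes (10.9%) was thus above that of other genes, while with 2, 5 and 10 kb it was below. Leaving out 1 replicate gave 8 to 12 genes, when other genes stood at 30.1% to 32.5%. The 22 summits became 8 without flanks, 14 with 2 kb, 34 with 10 kb and 9 with the strongest peaks, and 11 to 16 with 1 replicate left out. Per 100 kb, 1.68 became 1.04 without flanks and 0.842 to 1.22 with 1 replicate left out. Other genes then had 1.95 and 1.82 to 1.89. A TSS distance of 1000 bp gave 3 genes in place of 1. The median nearest distance became 17.6 to 20.7 kb with 1 replicate left out, and that of other genes 12.6 to 14.2 kb. The median signal percentile of 30.02 became 41.2 without flanks, 37.7 with 2 kb and 37.2 with 10 kb, and 32.4 to 45.5 with 1 replicate left out. With the best 6000 peaks of each replicate 18 of the 22 sites were found in all 3, against 86.1% of others. In 400 bp windows the GAGA word was at 3 sites, the Zelda word at 1 and motif 7 at 5 (22.7%, against 11.2% of others away from promoters). Leaving out a replicate also shortens the list, to 2173, 2094 and 2136 peaks, by construction. No paired analysis was possible because there is 1 group and no test. Weak sites near the end of the retained list are limited by the unknown depth.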
